A study of Rattus rattus with 8 samples.

Results

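Aminoacyl-tRNA synthetases are the enzymes that join each amino acid to its tRNA. Their transcripts were followed in the livers of rats that had eaten sodium phenobarbital (NaPB). The list held 36 gene symbols, matched exactly to the symbols of the array's probe table: 20 for enzymes of the cytosol and 16, ending in 2, for enzymes of mitochondria. Of these, 31 were found, 18 cytosolic and 13 mitochondrial, among 16945 genes with a symbol, and all 31 passed the filter on low values. Dars, Gars, Cars2, Hars2 and Iars2 had no exact match there and were not analysed here. The samples were livers of male WH rats with either no NaPB in the diet (0 ppm, 4 control rats) or 2500 ppm NaPB (4 NaPB rats), all taken on day 7. The labels name no transgene, deletion or further treatment, and give no age. Each liver was hybridized to its own single-colour (Cy3) Agilent array, without pooling, so precision is limited by having 4 arrays per diet.

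A cell needs tRNA charged with every amino acid in each compartment that makes protein. Mitochondria translate the few proteins of their own genome with a separate set of synthetases, which are encoded in the nucleus and imported, and Gars and Kars each make an enzyme for both places. In mammals several cytosolic synthetases are held in a multisynthetase complex by the scaffold proteins encoded by Aimp1, Aimp2 and Eef1e1. The transcription factor ATF4, which is made when amino acids run short or proteins fold badly, is known to raise transcripts of many cytosolic synthetases together with those of asparagine synthetase and of serine synthesis.

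Values are scaled intensities: the deposited intensity of each feature divided by the 75th percentile of the named features on its array, averaged over the features of a gene on the log2 scale. Values under 0.03 were set to that floor. Arrays of the same group correlated at r between 0.977 and 0.989 over all features, and those of different groups at 0.973 to 0.984. Cyp2b2, a cytochrome P450 gene that phenobarbital is known to induce in liver, lay between 4.41 and 6.49 in the control rats and between 111 and 138 in the NaPB rats. Among the marker lists, the summed level of hepatocyte markers ranged from 1062 to 1169 in control and from 916 to 1039 in NaPB rats, with 0 of 6 markers called in limma and 3 at an unadjusted p under 0.05. Summed sinusoidal endothelium markers ranged from 14.999 to 16.7 and from 11.2 to 13.2 (1 of 5 called, lower), stellate cell markers from 6.01 to 8.99 and from 4.83 to 5.49 (2 of 6, lower), and bile duct markers from 0.365 to 0.451 and from 0.855 to 1.03 (1 of 4, higher). Kupffer cell markers (56.2 to 66.3 against 52.3 to 68.5; 1 of 8, lower), lymphocyte markers (0.658 to 0.765 against 0.682 to 0.744; 1 of 4, lower) and exocrine pancreas markers (0.563 to 1.02 against 0.519 to 0.779; 0 of 4) overlapped between the diets. Of all genes tested, 10.5% were called. Sox9, Lum, Cd3e, Cd2, Cd79a, Ms4a1, Prss1 and Pnlip lay at the floor on all arrays. Single genes made up most of some sums: Kdr (means of 12.8 and 9.63) for sinusoidal endothelium, Col3a1 (5.73 and 4.00) for stellate cells and Epcam (0.2499 and 0.762) for bile duct. The other tested endothelial markers were not called: by log2 change Lyve1 and Pecam1 were at -0.0013 and -0.02, Clec4g and Vwf at -0.26 and -0.35. The part of cell composition in the values below was not tested, and in whole liver fewer cells of a type and less RNA per cell cannot be told apart.

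The comparison asked how the transcripts of tRNA charging differed between the diets. Most of them differed little. The gene for the cytosolic threonine enzyme, Tars, was the member with the largest change, and it fell to 0.736 of the control level. The gene for the mitochondrial serine enzyme, Sars2, rose 1.22-fold. A gene was called where its limma p, adjusted by Benjamini-Hochberg over all 10944 genes tested, was under 0.05, and no other synthetase met this. An unadjusted p under 0.05 in limma was found for 4 synthetases: Tars, Sars2, Mars and Vars2. The share of all genes tested under that unadjusted p is not given here. Such counts, for any list, therefore have no background beside them. By the adjusted p, 2 of 31 synthetases were called, or 6.45%, where 10.5% of all genes tested were called in either direction. In the cytosolic set 0 of 18 rose and 1 fell, and in the mitochondrial set 1 of 13 rose and 0 fell; over all genes 6.16% were called higher and 4.29% lower. The split of all called genes between directions depended on the scaling: 58.9% were higher with the scaling used, 49.2% after quantile normalization and 41.3% with arrays brought to the same median.

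The spread of the synthetase changes was narrow. Their median absolute log2 change was 0.09, against 0.16 over all genes tested, and their standard errors were similar (medians of 0.10 and 0.11). The 95% interval of the change lay wholly between -0.5 and 0.5 on the log2 scale for 27 of 31 synthetases, or 87.1%, and for 61.0% of all genes tested. These intervals are for single genes, without adjustment for their number. The exceptions were Tars (-0.70 to -0.19), the methionine enzyme gene Mars (-0.50 to -0.05, just past the limit), the valine enzyme gene Vars (-0.23 to 0.62) and the mitochondrial tyrosine enzyme gene Yars2 (-0.20 to 0.60). Among the 27 were Lars2, Mars2 and Ears2, which had feature values at the floor that hold a change toward 0. Signed changes had a median of -0.02 in the cytosolic and -0.04 in the mitochondrial set, against 0.0015 over all genes tested. Neither median kept 1 sign: under the alternative settings they ranged from -0.08 to 0.04 and from -0.10 to 0.08.

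**Figure D1:**
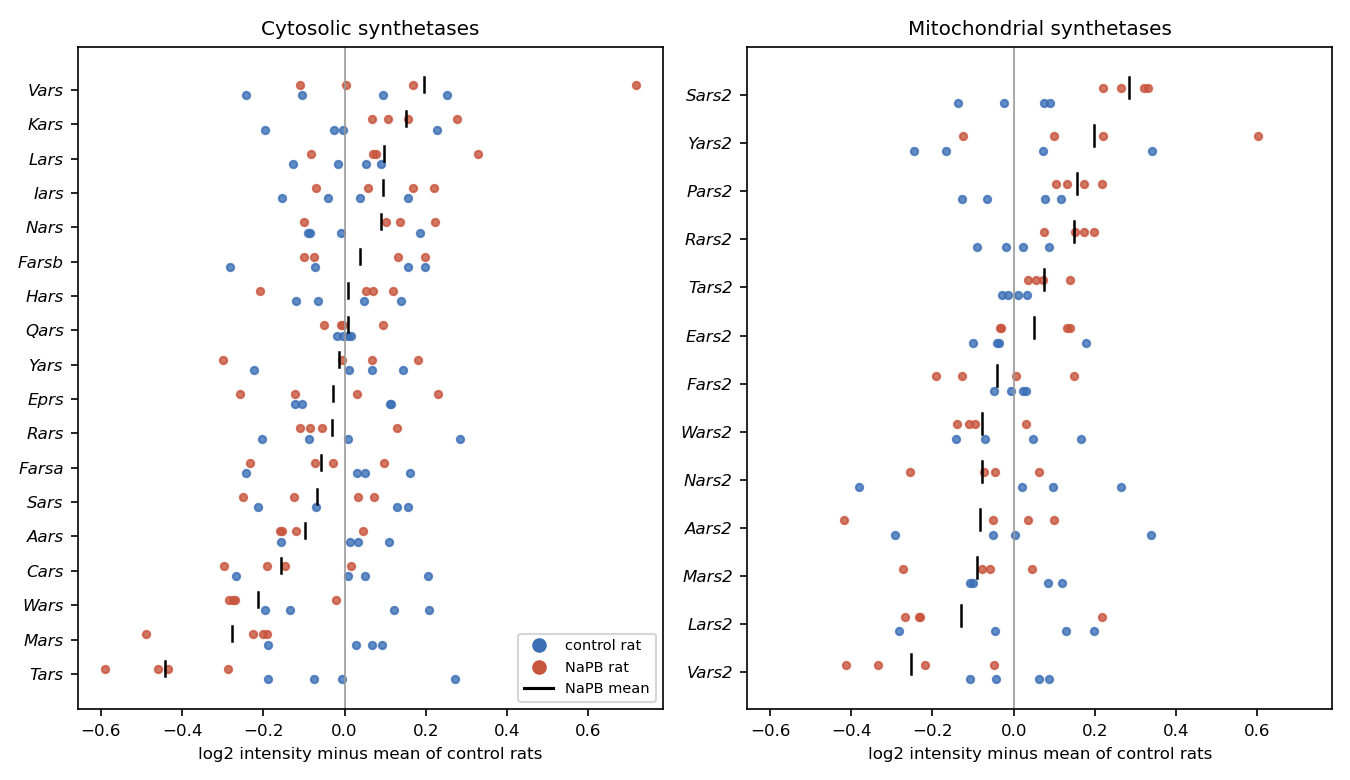
Level of each synthetase transcript in every rat. The x axis gives the log2 scaled intensity minus the mean of the 4 control rats, points are rats (blue control, red NaPB) and black bars the NaPB means; genes are ordered by their change. The NaPB rats lie left of all control rats for Tars and Mars and right of them for Sars2 and, by a small margin, Tars2, while the groups overlap for the other 27 genes.

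Tars encodes the enzyme that charges tRNA with threonine in the cytosol. Its scaled intensities were 12.8, 10.03, 10.5 and 9.27 in control replicates 1 to 4, and 8.66, 7.69, 7.02 and 7.82 in NaPB replicates 1 to 4. All 4 NaPB rats lay below all 4 control rats, and control replicate 1 was the highest. The log2 change was -0.44 ± 0.11 (here and below the standard error of the difference, n = 4 rats per group), with a limma adjusted p of 0.0404. Its 4 features, a bright and a dim pair, agreed in direction, with changes between -0.53 and -0.38. The call rested on most arrays: it held when control replicate 4 or NaPB replicate 1 was left out, and ended when any of the other 6 arrays was (adjusted p up to 0.0881). Testing dim genes too, with no filter, gave an adjusted p of 0.0938. With the brightest feature alone it was -0.38 (adjusted p = 0.0803).

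Sars2 encodes the mitochondrial enzyme for serine. Control replicates 1 to 4 had scaled intensities of 0.649, 0.561, 0.606 and 0.656, and NaPB replicates 1 to 4 had 0.718, 0.771, 0.741 and 0.776. The groups did not overlap, with the highest control rat at 0.656 and the lowest NaPB rat at 0.718. The log2 change was 0.28 ± 0.08 with an adjusted p of 0.0488 in limma, and both features gave 0.28. This call lay at the edge of the threshold: leaving out any 1 array ended it (adjusted p from 0.0553 to 0.126), as did quantile normalization (0.0511), arrays at the same median (0.101) and the deposited scale without further scaling (0.0501).

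Mars, the gene of the methionine enzyme that also charges the initiator tRNA, was lower in every NaPB rat without passing the threshold. The control rats had 4.22, 3.47, 4.15 and 4.03, the NaPB rats 3.38, 3.46, 2.82 and 3.44. Control replicate 2 and NaPB replicate 2 almost met, and NaPB replicate 3 stood below the others. The change was -0.28 ± 0.10 on a single feature (adjusted p = 0.114), and it passed with arrays at the same median (adjusted p = 0.0493). Tars2, for mitochondrial threonine, was the fourth synthetase whose groups did not overlap: controls had 2.76, 2.71, 2.80 and 2.69 and NaPB rats 2.85, 3.02, 2.81 and 2.88. That difference was small, at 0.08 ± 0.06 (adjusted p = 0.483). Groups did not overlap in 4 of 31 synthetases, or 12.9%, and in 19.1% of all genes tested.

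**Figure D2:**
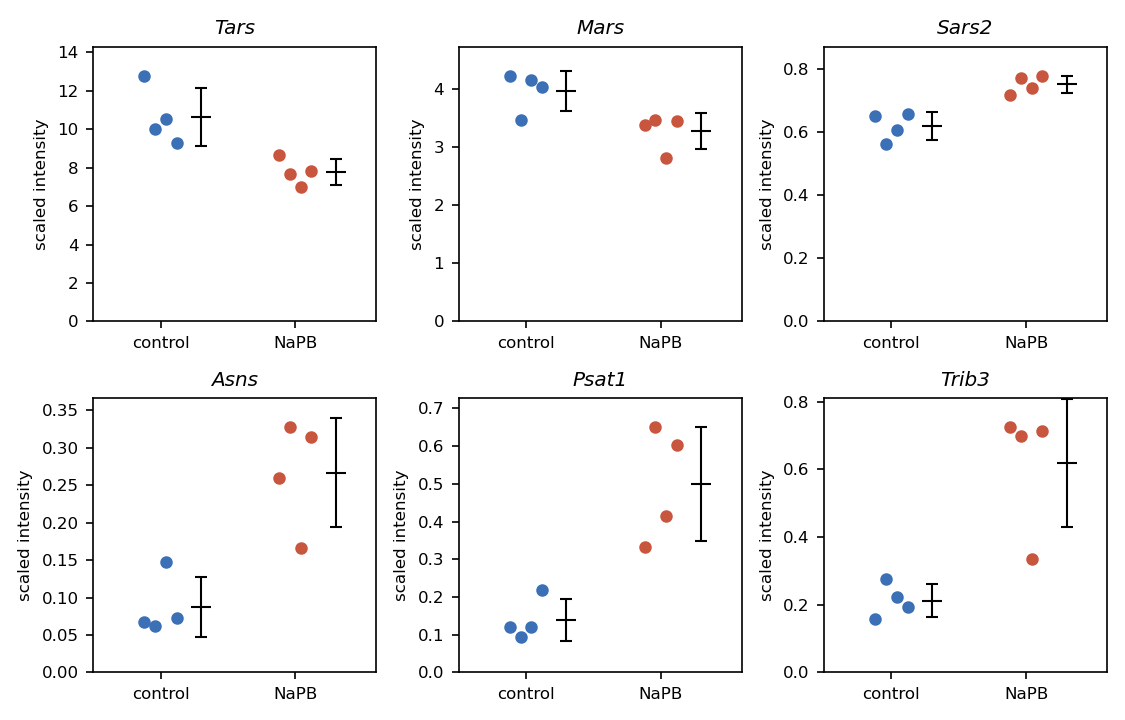
Scaled intensity (linear axis from 0) of Tars, Mars, Sars2 and the ATF4 targets Asns, Psat1 and Trib3 in each control (blue) and NaPB (red) rat; black marks are group means with SD, 4 rats per group. Tars, Mars and Sars2 change 0.736-, 0.825- and 1.22-fold, and Asns, Psat1 and Trib3 3.15-, 3.68- and 2.84-fold. NaPB replicate 3 is lowest of its group for Tars, Mars, Asns and Trib3.

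Enzyme genes of the multisynthetase complex gave 0 of 7 calls in limma, where 10.5% of all genes tested were called. Of these 7, 1 (Mars) had an unadjusted p under 0.05, and their median change was 0.01. The gene of the bifunctional glutamate and proline enzyme, Eprs, was at -0.03 ± 0.12, with 6.76, 6.69, 7.88 and 7.87 in control and 8.53, 6.69, 6.09 and 7.44 in NaPB rats, so that the NaPB rats spanned the whole control range. Among these 7, the glutamine enzyme gene Qars had the smallest standard error, with controls between 4.12 and 4.22 and NaPB rats between 4.04 and 4.47, and a change of 0.01 ± 0.06. Kars, for lysine, was at 0.15 ± 0.10 (2.61 to 3.496 in control, 3.13 to 3.62 in NaPB rats). Lars, Iars and Rars, for leucine, isoleucine and arginine, were at 0.10 ± 0.10, 0.09 ± 0.10 and -0.03 ± 0.11. Apart from Mars, none of these 7 enzyme genes had an adjusted p under 0.369.

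Of the 11 cytosolic genes outside the complex, Tars alone was called, where 10.5% of all genes tested were called. The median change of the 11 was -0.06. Wars, for tryptophan, whose transcript is induced by interferon-gamma in human cells, was at -0.21 ± 0.11 (adjusted p = 0.269), with 2.49, 2.09, 2.65 and 2.00 in control and 1.90, 1.89, 1.88 and 2.26 in NaPB rats. NaPB replicate 4 lay inside the control range and the other NaPB rats below it. Aars, for alanine, was at -0.10 ± 0.09, with control rats between 9.36 and 11.3 and NaPB rats between 9.35 and 10.8. Cars, for cysteine, was at -0.16 ± 0.11. Farsa and Farsb encode the subunits of the phenylalanine enzyme and were at -0.06 ± 0.11 and 0.04 ± 0.13. Sars, for serine, was read by 10 features and was at -0.07 ± 0.11, with features between -0.18 and 0.05. Hars and Yars, for histidine and tyrosine, were both within 0.02 of 0. Nars, for asparagine, was at 0.09 ± 0.10, but its features ran from -0.20 to 0.22. Vars, on a single dim feature, was at 0.20 ± 0.19, with NaPB replicate 4 at 0.0870 and the other 7 rats between 0.0447 and 0.0629.

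In the mitochondrial set, the lower values were led by Vars2, for valine, at -0.25 ± 0.10 (adjusted p = 0.132). Its controls had 0.258, 0.240, 0.263 and 0.229 and its NaPB rats 0.196, 0.213, 0.186 and 0.239, so that only NaPB replicate 4 reached into the control range. Pars2 and Rars2, for proline and arginine, were at 0.16 ± 0.08 and 0.15 ± 0.07 (adjusted p = 0.243 and 0.214). Controls of Rars2 lay between 2.19 and 2.48 and NaPB rats between 2.46 and 2.68, an overlap of single rats. Yars2 was at 0.20 ± 0.18, with NaPB replicate 2 highest at 0.481. Fars2, Nars2 and Wars2, for phenylalanine, asparagine and tryptophan, were at -0.04 ± 0.09, -0.08 ± 0.14 and -0.08 ± 0.09. Their features lay on both sides of 0, from -0.11 to 0.02 for Fars2 and from -0.18 to 0.02 for Nars2. In Wars2 a dim feature (mean intensity 0.0469) was at -0.20 and a brighter one (0.330) at 0.04.

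Some mitochondrial members were too dim for a firm value. Aars2, for alanine, lay between 0.0357 and 0.0603 on the 8 arrays and was at -0.08 ± 0.16. Lars2 and Mars2, for leucine and methionine, had 3 of 16 and 17 of 32 feature values at the floor, and were at -0.13 ± 0.14 and -0.09 ± 0.09. Values at the floor hold a change toward 0. Ears2, for glutamate, had 12 of 32 feature values at the floor: 1 of its 4 features was bright and changed by 0.30, while the gene mean changed by 0.05 ± 0.09. With that feature alone the adjusted p of Ears2 was 0.0715.

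**Figure D3:**
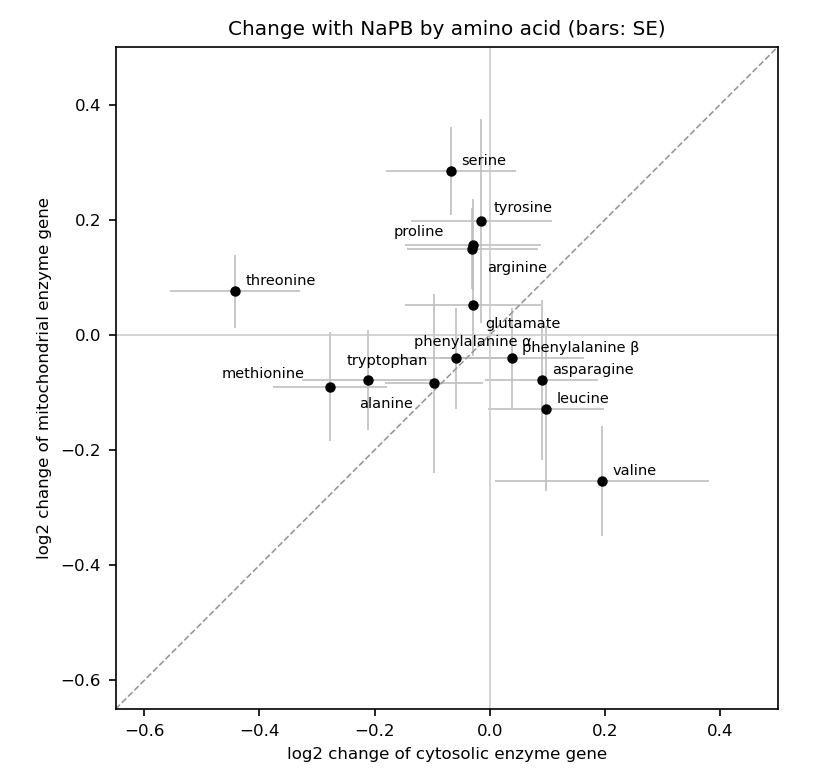
Log2 change with NaPB of the cytosolic (x axis) and the mitochondrial (y axis) synthetase gene for the same amino acid, with standard errors as bars; the dashed line marks equal change. Threonine (-0.44 and 0.08) and serine (-0.07 and 0.28) lie farthest above the line and valine (0.20 and -0.25) farthest below it, while the other 11 combinations differ by -0.23 to 0.21 (mitochondrial minus cytosolic).

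For 14 combinations of a cytosolic and a mitochondrial gene serving the same amino acid, the changes were set side by side. Eprs entered as the partner of both Ears2 and Pars2, and Fars2 as the partner of both Farsa and Farsb. The mitochondrial change was the higher value in 10 and the lower in 4, with a median difference of 0.11. The largest of the positive differences was for threonine, where the change of Tars2 exceeded that of Tars by 0.52 ± 0.11, followed by serine, where that of Sars2 exceeded that of Sars by 0.35 ± 0.13. Valine ran the other way and was second to threonine in size, with a difference of -0.45 ± 0.13 between the changes of Vars2 and Vars, although Vars was read by a single dim feature. The differences were taken within each rat before the diets were compared, and were not tested.

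Rats of the same diet differed in ways that many synthetases shared. Within the NaPB group, replicate 3 had the lowest value for 13 of 18 cytosolic genes and the highest for 0, where it was lowest for 31.9% of all genes tested. Its median deviation from the group mean over the cytosolic genes was -0.14. The mitochondrial genes did not follow that order: NaPB replicate 3 was lowest for 4 of 13, and NaPB replicate 2 highest for 9 of 13, against 29.6% of all genes. NaPB replicate 1 was highest for 8 of 18 cytosolic and 0 of 13 mitochondrial genes (25.3% of all genes). Among the control rats, replicate 3 was highest for 10 of 18 cytosolic and 8 of 13 mitochondrial genes (30.3% of all genes). Control replicate 2 was lowest for 7 of 18 and 6 of 13 (25.3% of all genes), and control replicate 4 for 8 of 18 and 7 of 13 (32.3%).

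**Figure D4:**
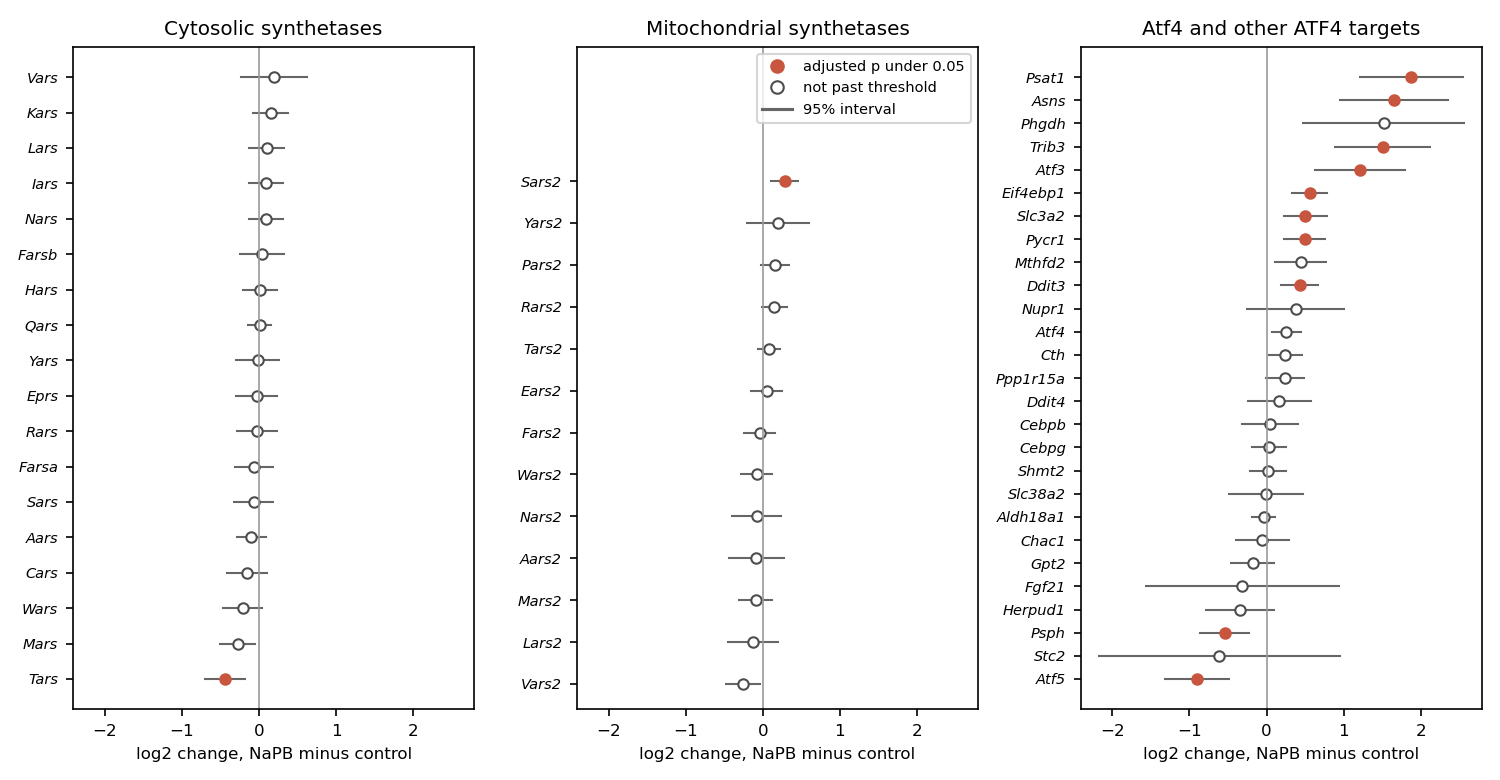
Log2 change, NaPB minus control (x axis), with 95% intervals for the cytosolic synthetases, the mitochondrial synthetases, and Atf4 with other targets of ATF4; filled points passed an adjusted p of 0.05 in limma. The synthetases cluster around 0 with short intervals. The called ATF4 targets run from 0.43 (Ddit3) to 1.88 (Psat1) above 0, with Psph and Atf5 called below 0. The other 17 of 27 were not called and lie between -0.61 and 1.52, some of them near 0, such as Shmt2 (0.01) and Cebpg (0.03).

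The list of Atf4 and other targets of ATF4 had a median absolute log2 change of 0.38, beside 0.09 for the synthetases. Its standard errors were also larger (medians of 0.15 and 0.10), and the difference was not tested. Of 31 members of that list on the array, 27 passed the filter on low values, Atf4 itself among them. Of these 27, 8 rose and 2 fell, with a median change of 0.24. The called share was 37.0%, where 10.5% of all genes tested were called. The list was chosen with earlier results of these rats known. Asns, which makes asparagine, rose from 0.0674, 0.0626, 0.148 and 0.0728 in control to 0.259, 0.327, 0.167 and 0.314 in NaPB rats, a log2 change of 1.65 ± 0.31 (adjusted p = 0.0125). Its lowest NaPB rat, replicate 3, was just above its highest control, also replicate 3. Psat1, an enzyme of serine synthesis, had 0.121, 0.0926, 0.120 and 0.219 in control and 0.332, 0.650, 0.416 and 0.602 in NaPB rats, and rose by 1.88 ± 0.29 (adjusted p = 0.00574). Trib3, a pseudokinase that restrains ATF4, rose by 1.504 ± 0.27 and the stress factor gene Atf3 by 1.21 ± 0.26. NaPB replicate 3 had the lowest NaPB value in 7 of the 10 called members of the list, against 31.9% of all genes tested. Among the 7 were Asns, Trib3 and Atf3 but also Atf5 and Psph, which fell. That rat was highest in 1 called member, Ddit3, and Psat1 was lowest in NaPB replicate 1. Leaving out control replicate 1, or any of NaPB replicates 1, 2 and 4, ended the call of Atf3 (adjusted p up to 0.0583). With no filter on dim genes the adjusted p was 0.0574 for Asns, 0.0534 for Trib3 and 0.0824 for Atf3, so that these calls ended as well. Psat1 kept its call in 18 of 19 alternatives, with an adjusted p of 0.0529 in the other.

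The difference for Atf4 itself, 0.25 ± 0.08, missed the threshold (adjusted p = 0.0858). Its control rats had 9.19, 9.92, 9.64 and 10.9 and its NaPB rats 12.6, 11.3, 11.1 and 12.3, without overlap. The members that fell, named after their values were seen, were Atf5, a related transcription factor gene, at -0.91 ± 0.18 (adjusted p = 0.0168), and Psph, the last enzyme of serine synthesis, at -0.54 ± 0.14 (adjusted p = 0.0398). Psph kept its call when NaPB replicate 2 or control replicate 4 was left out, and lost it when any of the other 6 arrays was, where its adjusted p reached 0.0899. With no filter Atf5 and Psph had adjusted p values of 0.0644 and 0.109. The 95% interval of Asns ran from 0.96 to 2.35 and that of Psat1 from 1.21 to 2.55. Both lay above the upper end of the interval of every synthetase measured, the highest of which was 0.62 for Vars. The intervals of Trib3 (0.88 to 2.12) and Atf3 (0.63 to 1.80) did too. The other members called higher had intervals that reached below 0.62. These were Ddit3 (0.19 to 0.67), Eif4ebp1 (0.33 to 0.79), Slc3a2 (0.23 to 0.78) and Pycr1 (0.23 to 0.76). Being called, these members were selected for large changes, so their intervals do not compare the list with the synthetases.

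The genes around tRNA charging were mostly not called, as were most of all genes tested (10.5% called). Of the scaffold genes of the multisynthetase complex 0 of 3 passed in limma, and 1 had an unadjusted p under 0.05. Eef1e1 was at 0.31 ± 0.10 (adjusted p = 0.0856), with 0.499, 0.439, 0.555 and 0.414 in control and 0.604, 0.574, 0.568 and 0.602 in NaPB rats, which did not overlap. Aimp1 and Aimp2 were at 0.06 ± 0.07 and 0.17 ± 0.09. Among 11 tested helpers of charging, such as the subunits Qrsl1 and Gatc of the mitochondrial amidotransferase that completes glutamine tRNA (-0.12 ± 0.11 and -0.13 ± 0.11), 0 were called in limma and 3 had an unadjusted p under 0.05. The largest change there was that of Aarsd1, a gene related to the editing part of the alanine enzyme, at 0.59 ± 0.20 (adjusted p = 0.0979).

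Of 7 cytosolic elongation factor genes 0 were called in limma, with 1 at an unadjusted p under 0.05. The one with the largest change was Eef1g, part of the factor that reloads the carrier of charged tRNA, at 0.17 ± 0.07 (adjusted p = 0.144). In mitochondrial translation 1 of 7 factor genes rose and 0 fell, or 14.3% called, where 10.5% of all genes tested were called. Mtrf1l, a release factor gene, had 0.602, 0.528, 0.588 and 0.583 in control and 0.735, 0.718, 0.765 and 0.698 in NaPB rats. The groups did not overlap, the change was 0.34 ± 0.07 (adjusted p = 0.0205), and the call held in 17 of 19 alternatives. It was lost without control replicate 2 (adjusted p = 0.0612) and in 1 further setting (0.0783).

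Lists of growth and of interferon response were set beside the synthetases. The called share was 7.14% of the growth list and 15.4% of the interferon list, where 10.5% of all genes tested were called. Of 14 genes of Myc and the nucleolus 1 rose and 0 fell. This was Npm1, a chaperone of ribosome assembly, at 0.32 ± 0.08 (adjusted p = 0.0463), and leaving out any array but control replicate 4 ended this call (adjusted p up to 0.111), as did quantile normalization (0.0821). Of 13 interferon response genes 2 rose and 0 fell, the chemokine genes Cxcl9, at 2.82 ± 0.11 (adjusted p = 4.8e-06), and Cxcl10, at 1.82 ± 0.44 (adjusted p = 0.0343). Cxcl9 had 0.331, 0.297, 0.350 and 0.313 in control and 2.33, 1.87, 2.62 and 2.35 in NaPB rats. Cxcl10 lost its call when control replicates 1, 2, 3 or NaPB replicates 1, 3 were left out singly (adjusted p up to 0.0863), and with no filter (0.123). Wars, described above, was at -0.21 ± 0.11 in the same rats.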

How the data were processed

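Liver RNA of 8 rats was labelled with Cy3 and hybridized to 1 Agilent array per rat, per the labels' protocols. The deposited values were taken as linear intensity, because every value is above 0 and each array has a long upper tail. The submitters' processing notes name Agilent Feature Extraction 10.7; how background, flags and scaling were handled is not given in the sources used here. Only the 45904 of 62976 features with 1 symbol were used. Intensities were divided by the 75th percentile of each array, raised to a floor of 0.03, put on the log2 scale and averaged per gene. Genes above that floor on 3 or more arrays of a diet were tested with limma 3.58.1 (R 4.3.3; lmFit, eBayes, two-sided), and p-values were adjusted over all genes tested by Benjamini-Hochberg (threshold 0.05). The code was tested on simulated data. The labels used here give no slide or scan date, so batches were not tested.

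The synthetases and the other lists were chosen with earlier results of these data known. Every synthetase was named, with up to 4 called genes of the largest change per pathway list (or 1 if none was called), Asns, Atf4 and Cyp2b2, in all 44 genes. Atf5, Psph, Aimp1, Aimp2, Qrsl1, Gatc, Tarsl2, Ddit3, Eif4ebp1, Slc3a2, Pycr1, Shmt2 and Cebpg were added after their values were seen. Alternatives were quantile normalization, arrays at the same median, the deposited scale, a floor of 0.1, only genes above the median level, no filter, the brightest feature, the replicate number as a block, a trended and robust prior, and leaving out each array. A Welch test and array weights were added after seeing the data.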

Additional observations from a re-analysis of the deposited data

Results flagged for a closer look

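In 6 of 102 groups of 4 rats examined, 1 rat stood apart from the other 3 by more than Dixon's 95% limit for 4 values, where about 1 in 20 groups is marked by chance. NaPB replicate 3 was marked for Mars, at 2.82 against 3.38 to 3.46 in the other NaPB rats, and for Trib3, at 0.334 against 0.698 to 0.724. Without NaPB replicate 3, Mars stayed below the threshold (log2 change of -0.21, adjusted p = 0.200) and Trib3 was at 1.78. NaPB replicate 4 was marked for Wars, at 2.26 against 1.88 to 1.90, and NaPB replicate 2 for Lars2, at 0.0463 against 0.0331 to 0.0340, close to the floor. Among the controls, replicate 1 was marked for Aarsd1, at 0.0717 against 0.0871 to 0.0905, and replicate 2 for Eef1g, at 12.5 against 13.5 to 13.6. The causes were not tested.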

How the results depend on the processing

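The number of genes changed was 739 without a filter, 583 with the replicate block, 320 with the Welch test, 1144 as reported and 625 to 980 without 1 array. Of the cytosolic synthetases 2 were called with arrays at the same median (Tars and Mars), 0 without a filter, with the brightest feature, the replicate block or the Welch test, and 0 to 1 without 1 array. Of the mitochondrial synthetases 0 were called after quantile normalization, with arrays at the same median, the deposited scale, the replicate block, the Welch test or without any 1 array. In the other pathway lists 14 genes were called in all, and 4 without a filter, 4 with the replicate block, 3 with the Welch test and 7 to 13 without 1 array. The median change of the mitochondrial set was 0.0749 with a floor of 0.1, 0.0755 for genes above the median level, 0.0413 with the brightest feature and between -0.104 and 0.0291 without 1 array; that of the cytosolic set lay between -0.06 and 0.04 without 1 array. No synthetase called in the main comparison changed sign, and 21 of 31 synthetases kept 1 sign in every alternative that gave a value. The causes were not tested. The replicate numbers belong to different rats: deviations of same-numbered rats correlated at -0.13 to 0.08, and 2 of 8 arrays correlated best with their own number, so the replicate block pairs rats by number alone; with it Tars had an adjusted p of 0.0601, Sars2 of 0.136 and Mtrf1l, which was otherwise lost only without control replicate 2, of 0.0783.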

Other observations

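Tarsl2, a further threonyl-tRNA synthetase gene that is no member of the list, lay near the floor, at no more than 0.0472 on any array, with 4 of 16 feature values at the floor. Its log2 change was 0.17 ± 0.14 in limma (adjusted p = 0.502), so that of the threonine enzymes Tars was lower, Tars2 was at 0.08 and Tarsl2 lay close to the floor.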
